A study of Rattus norvegicus with 48 samples.

Results

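The miR-99/100 and miR-125 families were followed through rat serum and ulna bone. The 6 miRNAs were taken by name from the read table of every library: rno-miR-99a-5p, rno-miR-99b-5p, rno-miR-100-5p, rno-miR-125a-5p, rno-miR-125b-5p and rno-miR-125b-1-3p, which are 6 of the 763 mature rat miRNAs listed. Each of the 6 had reads in both tissues.

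Small RNA was sequenced in 48 libraries, 32 from serum and 16 from ulna, which fell into 11 groups. Male Zucker Diabetic Fatty rats (ZDF, fa/fa), which carry a homozygous mutation of the leptin receptor and become diabetic spontaneously, were compared with Zucker lean rats (WT, +/+). All rats, controls included, ate a high-fat, high-carbohydrate chow and had a 3 mm femur defect made at 11 weeks of age, after which they were treated for 12 weeks. In each genotype 5 sera were from placebo rats, 5 from rats injected with parathyroid hormone (PTH, 75 µg/kg, 5 times a week) and 4 from rats injected with an anti-sclerostin antibody (25 mg/kg). A further 4 sera were from insulin-treated ZDF rats (daily doses raised from 0.5 to 13 IU). The ulnae were 4 per genotype under placebo and 4 per genotype under PTH. Ulna was ground and the bone fragments were lysed, so the bone libraries can hold any cell type left on or in the fragments. Fewer cells of a type and less RNA per cell cannot be told apart in such samples.

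A miRNA silences messenger RNAs that pair with its seed, bases 2 to 8. The miR-99/100 family is known for restraining mTOR and the IGF1 receptor, and miR-125 (the mammalian kin of lin-4) for control of differentiation, including that of osteoblasts and blood cells. The genes lie in 3 clusters, each with a miR-99 or miR-100 hairpin, a let-7 hairpin and a miR-125 hairpin. In the GRCr8 build of RefSeq, Mir99b and Mir125a lie within 0.7 kb on chromosome 1. Mir100 and Mir125b1 span 51.8 kb on chromosome 8, within the annotated span of Mir100hgl. Mir99a and Mir125b2 span 45.3 kb on chromosome 11. All are on the plus strand.

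Mature sequences were matched in RefSeq for 5 of the 6 miRNAs. They are shown, 5′ to 3′ with the seed in capitals, because the seeds divide the list into families and the letters outside the seed are what separates the reads of one member from those of another.
rno-miR-99b-5p (chr1:67350070-67350091): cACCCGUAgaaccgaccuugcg
rno-miR-100-5p (chr8:50798307-50798328): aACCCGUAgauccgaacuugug
rno-miR-125a-5p (chr1:67350689-67350712): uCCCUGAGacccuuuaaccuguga
rno-miR-125b-5p (chr11:29732588-29732609): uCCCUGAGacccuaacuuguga
rno-miR-125b-1-3p (chr8:50850090-50850111): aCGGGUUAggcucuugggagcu

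miR-99b-5p and miR-100-5p share the seed ACCCGUA and differ at 4 of 22 positions, counted from 1 at the 5′ end (C1A, A11U, C16A and C21U, miR-99b-5p first). miR-125a-5p and miR-125b-5p share the seed CCCUGAG and their first 13 bases. miR-125b-1-3p is the opposite arm of one hairpin and has a seed of its own, CGGGUUA. The hairpin of Mir125b1 (chr8:50850036-50850122) is shown with both arms in capitals.
Mir125b1: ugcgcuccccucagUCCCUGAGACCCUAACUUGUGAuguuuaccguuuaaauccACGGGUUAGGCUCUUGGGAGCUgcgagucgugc

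Its 5′ arm holds the whole of miR-125b-5p, which RefSeq lists under Mir125b2, so reads of miR-125b-5p cannot be assigned to either hairpin. One mismatch was allowed when the reads were mapped, and reads of members that differ by few bases may be shared. Counts of miR-99a-5p and miR-100-5p, near-identical miRNAs, are uncertain to that degree.

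Libraries were shallow. Serum libraries held 28015 to 205664 miRNA reads, or 0.529% to 4.09% of all reads, and bone libraries 41627 to 1398702, or 1.58% to 21.5%. Levels below are CPM (counts per 1000000 miRNA reads) after TMM scaling of all 48 libraries together, and a fold change is called at an adjusted p (edgeR's quasi-likelihood test, Benjamini-Hochberg over all miRNAs tested) under 0.2. These p-values measure the spread between rats. A CPM counts ligated reads rather than molecules, and miRNAs ligate unequally. WT PTH bone replicates 1 and 2 had the lowest miRNA shares of the bones (2.11% and 1.58%), and fold changes that use that group are also given without them. Muscle miRNAs (miR-1-3p, miR-133a-3p, miR-133b-3p and miR-206-3p) summed to 48027 to 438044 CPM in bone, and 5 mesenchymal miRNAs to 62778 to 324487 CPM. The liver miRNAs miR-122-5p and miR-122-3p summed to at most 11.0 CPM in bone.

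miR-99a-5p was the most-read of the 6 miRNAs in bone. It ranged from 26013 to 57308 CPM over the 16 bones (median 37525), held 3.26% of all bone miRNA reads and was the 4th most-read miRNA there. In serum it ranged from 526 to 10542 CPM (median 1492) and ranked 52nd. Among the bones its group means ran from 33684 ± 5489 CPM (SD, n = 4) under WT placebo, through 35213 ± 6805 under ZDF placebo and 38325 ± 5745 under ZDF PTH, to 44536 ± 10526 under WT PTH. These 4 groups overlapped.

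miR-125b-5p followed in bone with 6975 to 45520 CPM (median 10374, rank 17). It fell into 2 levels. WT placebo replicates 2, 3 and 4 held 45520, 32931 and 32286 CPM, whereas every other bone, WT placebo replicate 1 included (9941 CPM), held 6975 to 18442 CPM. In serum miR-125b-5p ran from 67.5 to 2014 CPM (median 440).

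miR-125a-5p ranged from 3321 to 14046 CPM in bone (median 5547) and from 432 to 5270 CPM in serum (median 1834). The same 3 WT placebo bones were the highest, at 14046, 11878 and 12859 CPM, and WT placebo replicate 1 held 4552 CPM. miR-100-5p lay between 4244 and 9558 CPM in bone (median 6317) and between 32.4 and 2380 CPM in serum (median 398). miR-99b-5p had the lowest median of the 5p members in both tissues, with 199 to 1482 CPM in bone (median 807) and 49.6 to 697 CPM in serum (median 266).

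miR-125b-1-3p, the passenger arm, was close to the limit of detection. It had reads in 15 of 16 bones, 0 to 63 reads each, against 365 to 23126 reads of miR-125b-5p. In serum it had a read in 10 of 14 WT libraries and in 4 of 18 ZDF libraries, never more than 8.

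**Figure D1:**
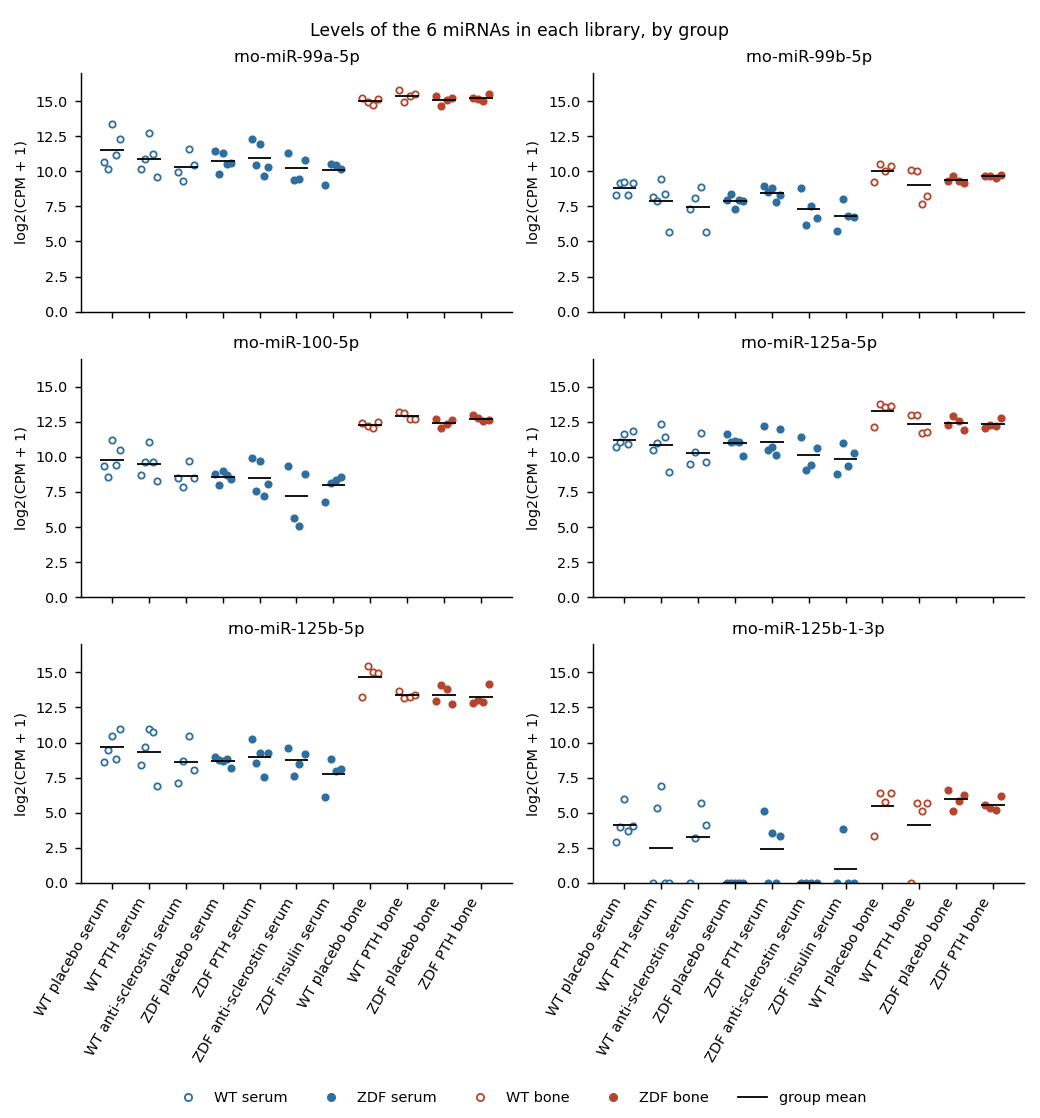
Level of each of the 6 miRNAs in every library, as log2(CPM + 1) on the y axis, by group on the x axis (blue serum, red bone, open WT, filled ZDF, black line the group mean). The group means of the 5p members sit higher in bone than in serum. The step is widest for miR-125b-5p, whose WT placebo bones split into 3 at 32286 to 45520 CPM and 1 at 9941 CPM. Single libraries overlap for miR-99b-5p (bone from 199 CPM, serum up to 697 CPM) and miR-125a-5p (bone from 3321 CPM, serum up to 5270 CPM).

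Bone and serum of placebo rats were compared to ask how the families divide between tissue and circulation. All tested members were higher in bone. In WT rats 6 of 6 members were called higher, where 80.6% of all 222 miRNAs tested were called in one direction or the other (93 higher and 86 lower). In ZDF rats 5 of 5 tested members were called higher, against 86.1% of 202 (93 higher, 81 lower). By the study's methods the bones came from rats that also gave serum, except 2 of the 4 ZDF PTH bones. Bone and serum of one rat cannot be matched from the labels, so the libraries were tested as independent.

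miR-125b-5p showed the widest gap. The 5 WT placebo sera held 384, 711, 1419, 455 and 1994 CPM and the 5 ZDF placebo sera 505, 429, 403, 451 and 291 CPM, all far under the lowest bone (6975 CPM). Its log2 fold change, bone over serum, was 4.71 ± 0.56 (SE) in WT rats and 4.71 ± 0.35 in ZDF rats (adjusted p = 5.17e-06 and 5.23e-08). miR-99a-5p followed, with 2.89 ± 0.58 in WT and 4.15 ± 0.37 in ZDF rats (adjusted p = 0.000393 and 1.25e-07). miR-100-5p, of the same seed family, was 2.07 ± 0.49 higher in WT bone and 3.75 ± 0.32 higher in ZDF bone (adjusted p = 0.00154 and 7.72e-08).

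The 2 members of the chromosome 1 cluster showed the narrowest gaps. miR-125a-5p was higher in bone by 1.90 ± 0.38 (log2, SE) in WT and 1.29 ± 0.32 in ZDF rats (adjusted p = 0.000393 and 0.00182). miR-99b-5p was higher by 1.06 ± 0.39 and 1.34 ± 0.34 (adjusted p = 0.0243 and 0.00190). miR-125b-1-3p was 1.19 ± 0.64 higher in WT bone (adjusted p = 0.106) and could not be tested in ZDF rats, whose placebo sera had no read of it. The exact permutation test of group means, which cannot go below p = 0.00794 with 4 against 5, gave 0.00794 or 0.0159 for each 5p member in both genotypes (adjusted 0.0833 to 0.111 over 84 tests).

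miR-125a-5p and miR-125b-5p changed places between the tissues. Per library, the ratio of miR-125b-5p to miR-125a-5p reads was 1.15 to 3.24 in the 16 bones, and 0.153 to 0.621 in the 32 sera. miR-125b-5p thus made up 53.5% to 76.4% of the reads of the pair in bone and 13.2% to 38.3% in serum. In the miR-99/100 family miR-99a-5p had the most reads in all 48 libraries, and it held 76.2% to 87.1% of the family's reads in bone and 54.3% to 85.0% in serum. miR-99b-5p held 0.409% to 3.97% in bone and 2.78% to 27.1% in serum. It was below miR-100-5p in all 16 bones and above it in 8 of the 32 sera.

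**Figure D2:**
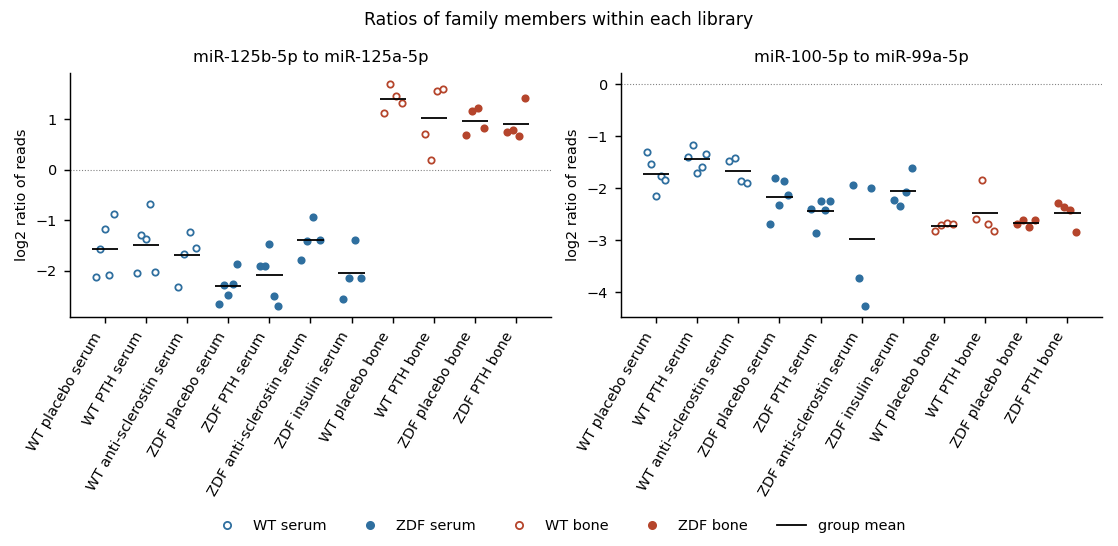
log2 ratio of reads within each library (y axis; a pseudocount of 0.5 read) for miR-125b-5p to miR-125a-5p on the left and miR-100-5p to miR-99a-5p on the right, by group (blue serum, red bone, open WT, filled ZDF, black line the group mean). The left ratio is above 0 in all 16 bones and below 0 in all 32 sera, and the right ratio is below 0 everywhere.

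Serum of ZDF and WT rats under placebo was compared to ask whether the diabetic genotype moved the circulating members. miR-100-5p was lower in ZDF serum. The WT sera held 658, 385, 2380, 670 and 1421 CPM and the ZDF sera 438, 251, 502, 410 and 340 CPM. WT replicate 2 (385 CPM) lay within the ZDF range, and WT replicates 3 and 5 stood above the rest. The log2 fold change was -1.31 ± 0.45 (adjusted p = 0.161). This was 1 of 5 members tested, where 6.10% of 164 miRNAs were called. Without WT replicate 3 the log2 fold change was -0.79 (adjusted p = 0.451), and miR-100-5p kept its call in 2 of the 10 fits that left out 1 library. Over all miRNAs, those 10 fits called 8 to 17. With the haemolysis covariate (miR-451-5p over miR-23a-3p) the log2 fold change of miR-100-5p was -0.58 (adjusted p = 0.578). Scaled to the spiked extraction controls it was -2.71 (adjusted p = 0.0557), where the median over all miRNAs shifted by -0.94.

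The other 5p members were not called. miR-125b-5p had a log2 fold change of -1.03 ± 0.44 (adjusted p = 0.379), miR-99a-5p -0.96 ± 0.52 and miR-99b-5p -0.68 ± 0.38 (adjusted p = 0.453 for both). miR-99a-5p was 1634, 1126, 10542, 2286 and 5103 CPM in WT against 2863, 890, 2519, 1504 and 1517 CPM in ZDF sera, and without WT replicate 3 its log2 fold change was -0.25. miR-125a-5p, at 1693 to 3658 CPM in WT and 1080 to 3233 CPM in ZDF sera, had a log2 fold change of -0.011 ± 0.34 (adjusted p = 0.989). The muscle miRNAs, 1 of 4 of which was tested and none called, summed to 1849 to 43233 CPM in the WT and 825 to 9599 CPM in the ZDF sera, and WT replicates 3 and 5 were the highest there too (43233 and 22796 CPM). The erythrocyte miRNAs, 4 tested and none called, summed to 100227 to 282239 CPM in the WT and 60552 to 155313 CPM in the ZDF sera, again highest in WT replicates 3 and 5 (182893 and 282239 CPM). Both liver miRNAs were called higher in ZDF serum, with sums of 178 to 1584 CPM against 188 to 637 CPM. The part of the muscle and liver miRNAs in the miR-100-5p difference was not tested.

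miR-125b-1-3p was read in all 5 WT placebo sera (1, 1, 7, 1 and 2 reads) and in none of the 5 ZDF placebo sera. The exact two-sided permutation test gave p = 0.00794, the smallest it can give here (adjusted 0.0833 over 84 tests). The 12 WT reads among 620609 miRNA reads are 19.3 CPM before TMM scaling. A count of 0 among 391570 ZDF reads allows 3 reads, or 7.66 CPM over the group (counting error alone). In a single ZDF placebo serum the same limit was 24.1 to 61.7 CPM, above the 19.3 CPM of the WT group. Of the 12 WT reads 7 came from replicate 3, so the absence in ZDF sera is not resolved rat by rat. Under anti-sclerostin 3 of 4 WT sera and 0 of 4 ZDF sera had a read, and under PTH 2 of 5 WT and 3 of 5 ZDF sera did (exact p = 0.143 and p = 1).

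The genotype contrast was also made within the treated sera. Under PTH 0 of 5 members were called (0 of 158 miRNAs, 0%), and under anti-sclerostin 0 of 5 (0 of 161, 0%). DESeq2 called 0 members in each, and edgeR's unadjusted p was under 0.05 for 0. For miR-100-5p the log2 fold change was -0.88 ± 0.69 under PTH and -0.14 ± 0.83 under anti-sclerostin. ZDF anti-sclerostin sera split for this miRNA, with 659 and 449 CPM in replicates 1 and 4 and 49.0 and 32.4 CPM in replicates 2 and 3 (9 and 4 reads).

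Read against its own family, miR-100-5p had a lower mean ratio in ZDF than in WT sera under placebo, PTH and anti-sclerostin. Its ratio to miR-99a-5p was 0.226 to 0.404 in WT and 0.155 to 0.287 in ZDF placebo sera. It was 0.306 to 0.443 in WT and 0.138 to 0.211 in ZDF PTH sera, and 0.269 to 0.373 against 0.0520 to 0.260 under anti-sclerostin. The differences in mean log2 ratio were -0.44 (exact p = 0.0714), -0.99 (exact p = 0.00794, no overlap) and -1.32 (exact p = 0.0286, no overlap, the smallest p that 4 against 4 allow). None passed adjustment over the 36 ratio tests (adjusted p = 0.514, 0.286 and 0.343). ZDF insulin sera had ratios of 0.198 to 0.327.

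Insulin was compared with placebo in ZDF rats to ask which circulating miRNAs respond to it. 2 members fell, and the other 3 tested had lower means that did not pass. miR-125a-5p was 3233, 2125, 2283, 2188 and 1080 CPM in the placebo sera and 432, 2043, 665 and 1242 CPM in the insulin sera, a log2 fold change of -1.05 ± 0.39 (adjusted p = 0.116). miR-99a-5p was 2863, 890, 2519, 1504 and 1517 CPM under placebo and 526, 1480, 1427 and 1179 CPM under insulin, a change of -0.81 ± 0.34 (adjusted p = 0.160). In both cases the groups overlapped, and insulin replicate 1 was the lowest serum.

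These were 2 of 5 members where 26.5% of 151 miRNAs were called (17 higher and 23 lower), so the share of members called is not far from that of all miRNAs. miR-99b-5p (-0.97 ± 0.47, adjusted p = 0.207), miR-125b-5p (-0.77 ± 0.40, adjusted p = 0.236) and miR-100-5p (-0.62 ± 0.35, adjusted p = 0.272) were lower and not called. The erythrocyte miRNAs miR-451-5p, miR-144-3p, miR-144-5p and miR-486 moved with insulin, 4 of 4 higher, and summed to 224170 to 428100 CPM in the insulin sera against 60552 to 155313 CPM under placebo, with no marker at 0. The liver miRNAs were both called lower (216 to 734 CPM under insulin, 178 to 1584 CPM under placebo). The part of either list was not tested. With the haemolysis ratio (miR-451-5p over miR-23a-3p) as a covariate the log2 fold changes were -1.42 for miR-125a-5p and -0.92 for miR-99a-5p, and neither was called (adjusted p = 0.831 for both). With it 0 of all miRNAs were called, against 40 without it. The erythrocyte sums of the 2 groups did not overlap, so that fit can hardly separate the covariate from insulin. Scaled to the spiked extraction controls they were 0.027 and 0.11, and the median over all miRNAs shifted by 0.83, so these 2 members fell relative to the other miRNAs and not on that scale. Without ZDF placebo replicate 1, or without insulin replicate 1, 3 or 4, 0 members were called, and without placebo replicate 5 only miR-125a-5p was. Over all miRNAs, the fits that left out 1 library called 4 to 59.

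The 2 bone-anabolic treatments were set against placebo in serum, where all comparisons within a genotype share its placebo sera. PTH moved 0 of 5 members in WT (0 of 170 miRNAs called, 0%) and 0 of 5 in ZDF rats (0 of 154, 0%), with edgeR's unadjusted p under 0.05 for 0 members and 0 called by DESeq2 in either genotype. The log2 fold changes ran from -0.49 to 0.23 in WT and from 0.31 to 0.57 in ZDF rats. Scaled to the extraction controls instead, all 5 members were called higher in ZDF PTH serum, by 1.86 to 2.49 (adjusted p = 0.0687 to 0.0897), as were 88 miRNAs in all, and the median over all miRNAs shifted by 1.37. Anti-sclerostin moved 0 of 5 members in WT rats (0 of 171, 0%, 0 by DESeq2). The unadjusted p was under 0.05 for 2 of them and for 18 of the 171 miRNAs. In ZDF rats it moved 0 of 5 (2 of 158, 1.27%, 0 members at an unadjusted p under 0.05, 0 by DESeq2). All 5 were lower in WT anti-sclerostin sera, from -0.72 ± 0.45 for miR-125a-5p to -1.50 ± 0.59 for miR-99a-5p (adjusted p = 0.522 and 0.459). With the haemolysis covariate miR-99a-5p (0.14) and miR-125b-5p (0.044) were not lower. miR-100-5p was then at -0.090, miR-125a-5p at -0.40 and miR-99b-5p at -0.83, and none was called (adjusted p = 0.984 to 0.998). Scaled to the extraction controls the 5 ran from -1.49 to -2.73 and 2 were called, among 15 miRNAs in all, and the median over all miRNAs shifted by -0.75. WT anti-sclerostin replicate 3 was the highest of its group for each of the 5. Without WT placebo replicate 2, 2 members were called, and without WT placebo replicate 1, 1 was. Over all miRNAs, the fits of this contrast that left out 1 library called 0 to 9.

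Within ZDF rats anti-sclerostin sera had a higher ratio of miR-125b-5p to miR-125a-5p than placebo sera, 0.290 to 0.520 against 0.158 to 0.274, with no overlap. The difference of the mean log2 ratio was 0.93 (exact p = 0.0159, adjusted 0.286). In the placebo sera the same ratio was lower in ZDF than in WT rats (0.228 to 0.546), by 0.75 on the log2 scale (exact p = 0.0397, adjusted 0.357). Both contrasts share the ZDF placebo sera, so their opposite signs are not independent.

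**Figure D3:**
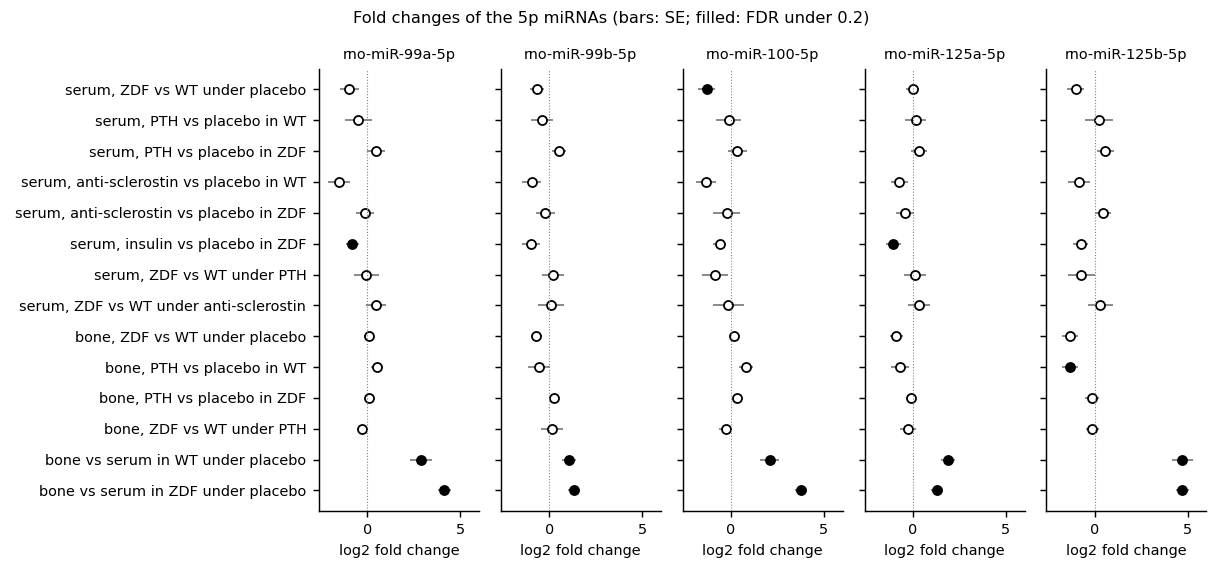
log2 fold change of each 5p member (x axis) in the 14 contrasts (y axis), with bars for 1 SE and filled points for an adjusted p under 0.2 by edgeR. Filled points stand in both bone against serum rows for all 5, and elsewhere for miR-100-5p in ZDF serum (-1.31), miR-99a-5p and miR-125a-5p under insulin (-0.81 and -1.05) and miR-125b-5p in WT PTH bone (-1.32).

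ZDF and WT bone under placebo were compared for the effect of genotype in the tissue. None of the 6 members was called by edgeR, where 2.55% of 235 miRNAs were called. The unadjusted p of edgeR was under 0.05 for 3 members and for 41 of the 235 miRNAs. DESeq2 called 3 members, and 40 miRNAs in all. miR-125b-5p was 9941, 45520, 32931 and 32286 CPM in the WT and 7909, 17743, 14368 and 6975 CPM in the ZDF bones, a log2 fold change of -1.33 ± 0.45 (adjusted p = 0.229). miR-125a-5p was 4552, 14046, 11878 and 12859 CPM against 4933, 7893, 6161 and 3923 CPM (-0.89 ± 0.36, adjusted p = 0.25), and miR-99b-5p 606, 1482, 1060 and 1317 CPM against 635, 832, 651 and 579 CPM (-0.69 ± 0.31, adjusted p = 0.279). In each of the 3 only WT replicate 1 lay within the ZDF range.

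The calls changed with single libraries. Without WT replicate 1 the log2 fold changes were -1.61 for miR-125b-5p and -1.13 for miR-125a-5p (adjusted p = 0.0557 and 0.0667) and 3 of 6 members were called. Without ZDF replicate 2, with WT replicate 1 kept, 3 were called too. Over all miRNAs, the fits that left out 1 library called 0 to 87. miR-99a-5p (0.083 ± 0.27) and miR-100-5p (0.15 ± 0.26) had fold changes near 0, with adjusted p = 0.925 and 0.876. WT replicate 1 also had the lowest miRNA share of its group (5.06% against 10.7% to 14.8%), the lowest muscle sum (56527 against 137787 to 438044 CPM) and the lowest sum of the cartilage miRNAs miR-140 and miR-455 (17014 against 30930 to 48885 CPM). In the ZDF bones the muscle sum was 78068 to 430294 CPM, and 2 of the 4 muscle miRNAs were called higher in ZDF bone (median log2 fold change of the 4, 0.45). The cartilage sum was 10833 to 22987 CPM in the ZDF bones, with none of 4 called. The leukocyte miRNAs (miR-142-3p, miR-142-5p, miR-223-3p and miR-150-5p) summed to 6019 to 8747 CPM in the WT and 4231 to 5887 CPM in the ZDF bones, without overlap, and none of 4 was called. Of the 5 mesenchymal miRNAs 1 was called lower. The part of these in the miR-125 difference was not tested.

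**Figure D4:**
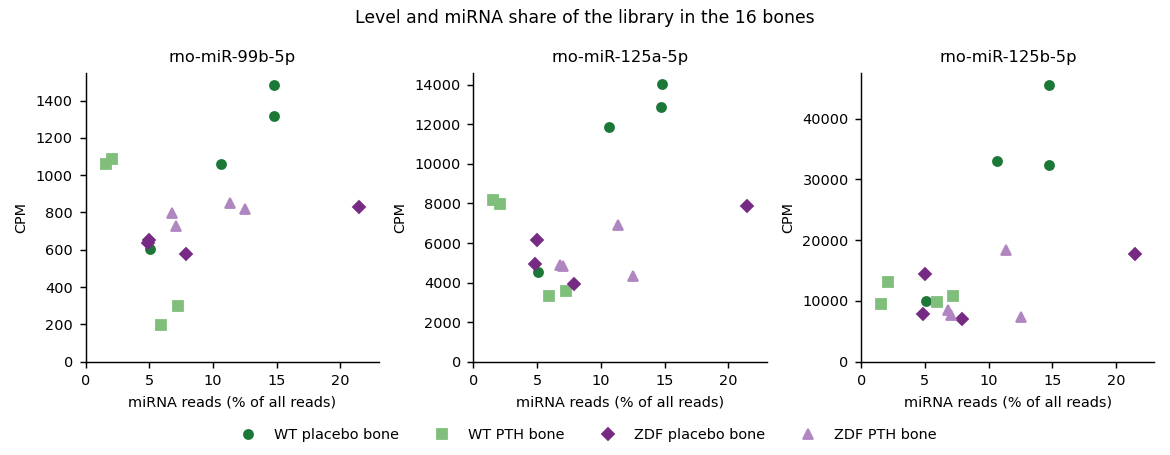
CPM of miR-99b-5p, miR-125a-5p and miR-125b-5p in the 16 bones (y axes, linear, from 0) against the share of all reads that were miRNA (x axis, %), by group. The 3 WT placebo bones with shares of 10.7% to 14.8% are the highest for miR-125a-5p and miR-125b-5p, and the 4 WT PTH bones form 2 pairs for miR-99b-5p and miR-125a-5p.

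PTH and placebo were compared in bone to ask what the hormone does in the tissue where it acts. In WT rats miR-125b-5p fell. The PTH bones held 13042, 9421, 9786 and 10807 CPM against 9941, 45520, 32931 and 32286 CPM under placebo. All PTH bones lay under 3 of the placebo bones and around the placebo replicate 1. The log2 fold change was -1.32 ± 0.43 (adjusted p = 0.164), and this was 1 of 6 members where 5.41% of 222 miRNAs were called, all 12 of them lower. The genotype contrast above shares these WT placebo bones, so its lower miR-125b-5p and this fall are not independent. miR-125b-5p was called in 2 of the 8 fits that left out 1 library, those without WT placebo replicate 1 or WT PTH replicate 4. Over all miRNAs, those 8 fits called 0 to 89. With both low-share PTH bones left out the log2 fold change of miR-125b-5p was -1.66 (adjusted p = 0.181). The muscle sum was 48027 to 67113 CPM in the PTH bones and 56527 to 438044 CPM in the placebo bones. Of its 4 miRNAs 1 was called lower, and their median log2 fold change was -0.098. In the mesenchymal, leukocyte and cartilage lists 1 miRNA each was called lower too (of 5, 4 and 4 tested, medians -0.53, 0.12 and -0.30). Of the 4 erythrocyte miRNAs 0 were called. The part of these lists was not tested.

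miR-100-5p went the other way in the same bones. The PTH bones held 9558, 8956, 6521 and 6636 CPM and the placebo bones 5574, 4765, 4278 and 5746 CPM, with no overlap (exact p = 0.0286, the smallest possible, adjusted 0.171). Its log2 fold change was 0.79 ± 0.37 (adjusted p = 0.305, not called). The 2 highest values belonged to the 2 low-share libraries, without which the change was 0.22 (adjusted p = 0.859). miR-99a-5p had 57308, 32031, 41871 and 46935 CPM under PTH (0.51 ± 0.33, adjusted p = 0.460), and its change was 0.24 without those libraries (adjusted p = 0.796). miR-125b-1-3p had changes of -0.64 ± 0.66 with all bones and -0.61 without them (adjusted p = 0.664 and 0.762).

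The chromosome 1 pair split the WT PTH bones. miR-99b-5p was 1085 and 1058 CPM in replicates 1 and 2 and 199 and 299 CPM in replicates 3 and 4. miR-125a-5p was 7958 and 8182 CPM in the first 2 and 3321 and 3556 CPM in the other 2. Replicates 1 and 2 are the low-share libraries, and the part of the low share in this split was not tested. With all 4 bones the log2 fold changes of the pair against placebo were -0.55 ± 0.61 and -0.69 ± 0.49 (adjusted p = 0.692 and 0.495). With replicates 3 and 4 alone they were -2.29 and -1.77 (adjusted p = 0.172 for both), and 3 of 6 members were called. With all 4 PTH bones 12 miRNAs in all were called. The count over all miRNAs for that choice is given only as a bound. It was at most 55, the highest of any setting, reached with every miRNA of at least 1 read and independent filtering. The 3 of 6 members therefore cannot be set against a share of all miRNAs. That choice was made after seeing the data. The mesenchymal sum was also split, 255619 and 324487 CPM in replicates 1 and 2 and 113084 and 96908 CPM in the others. Its part was not tested.

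In ZDF bone PTH moved 0 of 6 members (0 of 215 miRNAs, 0%, 0 members at an unadjusted p under 0.05 and 0 by DESeq2). The log2 fold changes ran from -0.37 ± 0.41 for miR-125b-1-3p to 0.31 ± 0.24 for miR-100-5p, and miR-125b-5p stood at -0.16 ± 0.36. Between ZDF and WT bone under PTH 0 of 6 members were called, where 3.27% of 214 miRNAs were (0 members at an unadjusted p under 0.05, 0 by DESeq2). The log2 fold changes ran from -0.28 to 0.48. Without the 2 low-share bones miR-99b-5p was higher in ZDF PTH bone by 1.76 (adjusted p = 0.0244), and the other 5 lay between -0.14 and 0.68, none called. Over all miRNAs 43 were called then, against 7 with all bones.

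The PTH response was then compared between the genotypes in 1 model. In bone that model uses the same WT placebo bones as the genotype and PTH contrasts above, so it is not independent of them. In bone the difference of responses, ZDF minus WT, was 1.20 ± 0.58 for miR-125b-5p (adjusted p = 0.747) and 0.94 ± 0.66 for miR-99b-5p (adjusted p = 0.752), and 0 of 6 members were called (0 of 243 miRNAs, 0%). Without the low-share bones miR-99b-5p (2.53, adjusted p = 0.00959) and miR-125a-5p (1.66, adjusted p = 0.195) were called. The count over all miRNAs is again given only as a bound. It was at most 8, the highest of any setting, reached with every miRNA of at least 1 read and independent filtering. miR-125b-5p was then at 1.51 (adjusted p = 0.414), and the other 3 lay between -0.15 and 0.21. In serum 0 of 5 members were called for the difference in the PTH response (0 of 182, 0%) and 0 of 5 for that in the anti-sclerostin response (0 of 189, 0%). DESeq2 called 0 members in each of these 3 tests, and the unadjusted p was under 0.05 for 0.

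The serum and bone effects of genotype under placebo were compared in a test added after the values were seen. The bone effect minus the serum effect was 1.74 ± 0.62 (log2) for miR-100-5p (adjusted p = 0.246), 1.32 ± 0.72 for miR-99a-5p (adjusted p = 0.590) and -0.0075 ± 0.69 for miR-125b-5p (adjusted p = 1.00). None of 5 members was called (0 of 229 miRNAs, 0%, 0 members by DESeq2). The unadjusted p was under 0.05 for 1 member and for 22 of the 229 miRNAs.

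The let-7 and opposite-arm miRNAs of the 3 clusters and their close copies, 13 of them in the files, were compared in the same way. Of 8 tested, 8 were called higher in bone in each genotype, against the 80.6% and 86.1% of all miRNAs called in either direction. let-7c-5p, of the miR-99a cluster, was higher by 4.42 ± 0.55 (log2) in WT and 4.53 ± 0.39 in ZDF rats, and let-7e-5p, of the miR-99b cluster, by 3.71 ± 0.54 and 4.33 ± 0.35, more than its neighbours miR-99b-5p and miR-125a-5p. miR-99a-3p was higher by 4.38 ± 0.81 and 4.63 ± 0.58. In the other 12 contrasts within a tissue 4 to 9 of the 13 were tested and 0 were called by edgeR, with miR-99a-3p alone at an unadjusted p under 0.05 in WT bone under PTH (1.26 ± 0.47, adjusted p = 0.217) and between ZDF and WT bone under PTH (-0.81 ± 0.34, adjusted p = 0.317). DESeq2 called 1 in each of those 2 and 0 in the other 10. let-7a-1-3p and let-7c-2-3p had equal reads in 45 of the 48 libraries, so they count as 1 measurement.

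Across the 11 groups each 5p member had another 5p member among its 3 nearest patterns. Within a seed family this held only for miR-99a-5p and miR-100-5p. miR-125a-5p and miR-125b-5p were not among the 3 nearest of each other, and neither miR-99a-5p nor miR-100-5p was among those of miR-99b-5p. Likeness was the root mean square difference of centred mean log2 levels over the 11 groups, among 236 miRNAs, and it is led by the step between bone and serum. miR-99b-5p and miR-125a-5p, neighbours on chromosome 1, were nearest to each other at 0.27, with a median over all miRNAs of 1.32 and 1.36. miR-99a-5p was nearest to let-7c-5p (0.45), then to miR-100-5p (0.47) and miR-125b-5p (0.49). miR-125b-5p was nearest to miR-99a-5p (0.49), let-7c-5p (0.50) and miR-434-3p (0.60), and miR-100-5p to miR-99a-5p (0.47), miR-181a-1-3p (0.52) and miR-351-5p (0.61). The next after each other were miR-34a-5p (0.40) and miR-30d-5p (0.42) for miR-99b-5p, and miR-28-5p (0.33) and miR-152-3p (0.35) for miR-125a-5p.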

How the data were processed

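Small RNA libraries (RealSeq-Biofluids) were made by the authors from 100 µL of serum or from ground ulna. The authors trimmed reads with cutadapt, discarded any under 17 nt and aligned the rest by bowtie to the rat genome Rnor 6.0 (2 mismatches) and then to rat miRBase (1 mismatch). The deposited tables give the raw read count of each mature miRNA and RPM, which the authors scaled to all reads of the library. RPM served only to recover each library's total. Libraries of a group differed by more than sampling noise (82 pairs, lowest chi-square per degree of freedom 15.3).

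Counts were fitted 2 groups at a time with edgeR (version 4.0.16, quasi-likelihood, TMM, filterByExpr), or in 1 model for differences of responses. The study's filtering of low-abundance miRNAs was replaced by filterByExpr. Settings tried were DESeq2 (1.42.0) and other size factors, library sizes, filters and thresholds, an erythrocyte covariate, all groups in 1 fit, leaving out each library, and, added after seeing the data, leaving out 2 bones. Scripts were tested on simulated data. Exact tests were two-sided, on log2(CPM + 1). The 6 miRNAs, the lists of markers and cluster partners and the tests were chosen with earlier results of these data known. All 6 members are named, other miRNAs only from those lists or as the 3 nearest patterns. Each library is 1 rat by the study's methods; the labels give no replicate numbers, so rats were numbered in accession order and not paired.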

Additional observations from a re-analysis of the deposited data

Results flagged for a closer look

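Of 95 sets of 4 or 5 libraries examined, 4 had 1 library far from the others by Dixon's criterion, which chance alone gives in about 1 in 20 sets. In WT placebo bone, replicate 1 held 4552 CPM of miR-125a-5p against 11878 to 14046 CPM in the other 3. In ZDF PTH bone, replicate 4 was the highest for miR-125b-5p, at 18442 CPM against 7324 to 8445 CPM, and for the log2 ratio of miR-125b-5p to miR-125a-5p, at 1.42. In WT PTH bone, replicate 1 was at 0 CPM of miR-125b-1-3p among 54497 miRNA reads.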

How the results depend on the processing

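The number of members called in the 18 tests was within 1.5 times its value in 179 results under other settings and beyond that in 34, and in 165 results that left out 1 library and beyond that in 32. No paired analysis was possible because the labels carry no shared replicate numbers. For serum of ZDF against WT rats under placebo the 1 call became 0 with total miRNA reads as library size, 5 with all reads of the library, 4 with every miRNA of at least 1 read (with or without independent filtering), 4 with the extraction controls, and 0 with all groups in 1 fit, the erythrocyte covariate or a threshold of 0.05. Over all miRNAs, 6 were called higher and 100 lower with all reads, and 2 higher and 35 lower with the extraction controls. For insulin the 2 calls became 1 with DESeq2's size factors, 5 with total miRNA reads, 4 with all reads, and 0 with all groups in 1 fit, the extraction controls, the covariate or a threshold of 0.05. Over all miRNAs, 9 were called higher and 50 lower with total miRNA reads, and 4 higher and 29 lower with all reads. With the extraction controls miR-99a-5p (0.11) and miR-125a-5p (0.027) changed sign. PTH in ZDF serum went from 0 to 5 with the extraction controls. Anti-sclerostin in WT serum went from 0 to 2 with every miRNA of at least 1 read and independent filtering, 1 without it, and 2 with the extraction controls. ZDF against WT serum under anti-sclerostin went from 0 to 1 with every miRNA of at least 1 read and independent filtering. For ZDF against WT bone under placebo the 0 became 1 with DESeq2's size factors, total miRNA reads or every miRNA of at least 1 read and independent filtering, 3 with DESeq2 and 2 with independent filtering after filterByExpr. For PTH in WT bone the 1 became 3 with all reads, 2 with DESeq2, 0 at a threshold of 0.05, and 3 without the low-share bones (chosen after seeing the data). Over all miRNAs, all reads gave 53 calls there, all lower. Without those bones ZDF against WT bone under PTH went from 0 to 1, as with all reads, and the difference of PTH responses in bone from 0 to 2. The difference of genotype effects between tissues, added after seeing the data, went from 0 to 2 with every miRNA of at least 1 read and independent filtering, and 1 without it. Leaving out 1 library gave 0 to 2 calls for ZDF against WT serum, 0 to 2 for anti-sclerostin in WT serum, 0 to 4 for insulin, 0 to 3 for ZDF against WT bone, 0 to 2 for PTH in WT bone, and 0 to 1 for the difference of PTH responses in bone and of genotype effects between tissues. Over all miRNAs the same fits called, in that order, 8 to 17, 0 to 9, 4 to 59, 0 to 87, 0 to 89, 0 to 21 and 0 to 26. The cause of these changes was not tested. Over all miRNAs, calls ranged from 6 to 106 for ZDF against WT serum, 0 to 59 for insulin, 0 to 40 for ZDF against WT bone, 0 to 55 for PTH in WT bone, 3 to 43 for ZDF against WT bone under PTH, 0 to 24 for anti-sclerostin in ZDF serum, and 148 to 330 and 150 to 348 for bone against serum. Of the tests with 0 calls, the highest count under another setting was 88 for PTH in ZDF serum (extraction controls), 17 and 12 for anti-sclerostin in WT serum and for genotype under anti-sclerostin, 27 for genotype effects between tissues, and 1 to 8 for the others. The median over all miRNAs shifted by -0.94 (ZDF against WT under placebo) to 1.37 (PTH in ZDF rats) over the serum contrasts with the extraction controls. With all reads of the library it shifted by -1.16 (PTH in WT bone) to 0.96 (ZDF against WT bone under PTH) where 2 groups of a tissue were compared, and by 2.46 and 2.89 for bone against serum. Depth limits miR-125b-1-3p, with at most 8 reads in any serum.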
